A study of Homo sapiens with 6 samples.

Results

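Collagens, laminins and integrins are the fibres, the basement membrane proteins and the cell surface receptors of the extracellular matrix. Their genes were taken from the deposited expression table by symbol: COL, a number, A and a number for collagen chains, LAMA, LAMB or LAMC with a number for laminin chains, and ITGA or ITGB with their number or letter for integrin subunits. The rule used names alone and no measured value. It found 75 of the 31814 genes in the table, which were 38 collagen, 11 laminin and 26 integrin rows. ITGB3 stood in the table under a pair of gene identifiers, so the 75 rows carried 74 symbols.

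The study measured polyadenylated RNA of H69 cells, a human cell line, in 6 libraries. The 3 TSA libraries came from cells exposed for 24 hours to TSA at 1 µM, and the 3 vehicle libraries from cells kept in DMSO, the solvent, for the same time. TSA is the usual abbreviation of trichostatin A, an inhibitor of histone deacetylases, and the labels do not spell it out. The sample tag of the treated libraries reads HSA, whereas TSA is named in the title, in the protocol of the treatment and in the text on the design. Nothing in the labels says that the 3 libraries of a group were separate cultures. A p-value here weighs a difference against the scatter of these libraries, and that scatter may be technical. All cells were grown in RPMI medium with serum.

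Collagen chains fold as trimers, some of which form fibrils while others form networks, beaded filaments or transmembrane anchors. A laminin is a trimer of an alpha, a beta and a gamma chain, and laminin and type IV collagen networks together make the basement membrane. An integrin is a pair of an alpha and a beta subunit in the cell membrane, and the pair sets which matrix protein the receptor binds.

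The labels give no tissue for the line. All 10 neuroendocrine markers examined were at 1 TPM or more (TPM is a level corrected for gene length and scaled to the same total in each library) in both groups, and their summed level was 1577 to 1727 TPM in TSA libraries, against 2608 to 3160 TPM in vehicle libraries. Of the 10 rows of bile duct markers, 7 were at 1 TPM or more in TSA libraries and 8 in vehicle libraries, with sums of 365 to 472 TPM in TSA and 787 to 997 TPM in vehicle libraries. Of 8 fibroblast markers 2, THY1 and FBLN1, reached 1 TPM in either group, with a sum of 14.8 to 18.1 TPM in TSA libraries and 9.81 to 13.5 TPM in vehicle libraries. DCN, LUM, PDGFRB and FAP did not exceed 0.402 TPM in any TSA library and had no read in any vehicle library. Markers of endothelial cells (4 genes) summed to 0.209 to 0.275 TPM in TSA and 0.399 to 0.678 TPM in vehicle libraries. The sum of 5 leukocyte markers was 5.41 to 6.07 TPM in TSA libraries and 4.08 to 4.92 TPM in vehicle libraries, most of it CD14. The part of other cell types in the results was not tested. The levels of transcripts of 5000 nt or more, relative to all genes tested, were shifted by 0.06, −0.21 and −0.22 (log2) in the TSA libraries and by 0.19, −0.03 and 0.20 in the vehicle libraries. The mitochondrial share of the RNA was 16.9%, 7.65% and 10.4% in TSA libraries and 12.3%, 4.97% and 10.1% in vehicle libraries. TSA 1 and vehicle 2 thus stood apart from the other libraries of their groups.

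The promoters of a few members are given here because the results turn on them: LAMB2 and LAMB1, which changed in opposite directions, COL6A2 as a gene that rose, COL17A1 as a gene that fell, and COL4A6 with COL4A5, which lie head to head and both fell. Each is the 250 bases before the gene's start, 5′ to 3′ on the strand of the gene, from RefSeq on GRCh38.p14. For COL4A6 the annotated start nearest to COL4A5 was used. The expression values rest on hg19, so the positions serve to place the sequences only. Capitals in the first 4 mark a GC box (GGGCGG, which Sp1 binds) or the TATA box sequence (TATAAA), each on either strand. In the last pair they mark the 121 bases that the COL4A6 and COL4A5 windows share.
LAMB2, chr3:49133051-49133300, minus strand: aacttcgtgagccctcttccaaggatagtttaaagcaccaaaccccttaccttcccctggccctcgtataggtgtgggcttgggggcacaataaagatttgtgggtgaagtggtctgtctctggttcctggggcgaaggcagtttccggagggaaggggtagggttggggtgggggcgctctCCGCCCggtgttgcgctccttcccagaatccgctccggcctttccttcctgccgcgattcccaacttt
LAMB1, chr7:108003162-108003411, minus strand: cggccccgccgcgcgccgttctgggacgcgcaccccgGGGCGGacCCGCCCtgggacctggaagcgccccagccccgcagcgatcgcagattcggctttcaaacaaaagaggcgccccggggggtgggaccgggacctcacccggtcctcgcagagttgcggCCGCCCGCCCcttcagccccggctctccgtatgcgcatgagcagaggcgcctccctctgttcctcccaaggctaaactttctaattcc
COL6A2, chr21:46097862-46098111, plus strand: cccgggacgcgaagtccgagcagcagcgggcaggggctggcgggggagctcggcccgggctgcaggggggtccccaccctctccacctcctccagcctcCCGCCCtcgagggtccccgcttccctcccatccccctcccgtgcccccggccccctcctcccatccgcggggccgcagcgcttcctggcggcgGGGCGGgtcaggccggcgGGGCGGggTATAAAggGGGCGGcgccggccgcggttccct
COL17A1, chr10:104085881-104086130, minus strand: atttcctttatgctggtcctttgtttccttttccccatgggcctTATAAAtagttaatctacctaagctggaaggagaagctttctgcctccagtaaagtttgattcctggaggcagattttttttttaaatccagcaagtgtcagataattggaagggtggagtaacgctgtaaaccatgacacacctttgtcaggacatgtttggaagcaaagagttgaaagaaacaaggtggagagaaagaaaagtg
COL4A6, chrX:108439459-108439708, minus strand: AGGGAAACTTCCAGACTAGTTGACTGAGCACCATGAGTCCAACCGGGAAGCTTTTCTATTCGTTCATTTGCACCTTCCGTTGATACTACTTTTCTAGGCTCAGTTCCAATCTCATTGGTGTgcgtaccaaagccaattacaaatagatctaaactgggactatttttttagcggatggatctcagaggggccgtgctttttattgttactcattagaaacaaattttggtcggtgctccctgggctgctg
COL4A5, chrX:108439588-108439837, plus strand: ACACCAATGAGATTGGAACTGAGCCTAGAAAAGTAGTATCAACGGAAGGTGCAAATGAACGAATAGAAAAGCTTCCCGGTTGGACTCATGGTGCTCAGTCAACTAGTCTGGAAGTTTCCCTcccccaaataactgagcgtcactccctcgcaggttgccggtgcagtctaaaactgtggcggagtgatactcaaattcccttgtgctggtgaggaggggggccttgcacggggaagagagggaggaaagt

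Of the 75 rows, 40 reached 1 TPM in at least 3 libraries and were tested with limma on log2(TPM + 1) along with all other such genes. Among the 40, 13 were higher and 16 lower in TSA at an adjusted p under 0.05, and 11 were not called. Over all 17596 genes tested, 28.0% were higher, 34.2% lower and 62.2% changed in either direction. The split of these calls depended on scaling, with 5372 higher and 5341 lower under median-of-ratios scaling, against 4929 and 6013. For the 40 tested rows these shares were 32.5%, 40.0% and 72.5%, so the families changed about as often as genes at large. The groups did not overlap in 29 of the 40, or 72.5%, against 67.0% of all genes tested. The median log2 fold change was 0.09 for the tested rows and −0.095 for all genes tested.

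The calls are given next by the level in vehicle cells. Every vehicle library had 1 TPM or more for 25 of the tested members. Of these, 4 rose, 16 fell and 5 were not called, whereas 23.6% of all such genes rose and 39.3% fell. Another 7 members, COL1A1, COL5A1, COL5A3, COL26A1, ITGA5, ITGB7 and LAMB3, were under 1 TPM in all vehicle libraries and entered the test through the TSA libraries. All 7 were called higher, as were 97.9% of all genes that entered in that way, so their number is no result about the families. ITGB8 was the reverse case, at 1 TPM or more in the 3 vehicle libraries and in none of the TSA libraries. In bulk RNA, fewer cells that express a gene and less RNA per cell cannot be told apart.

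**Figure D1:**
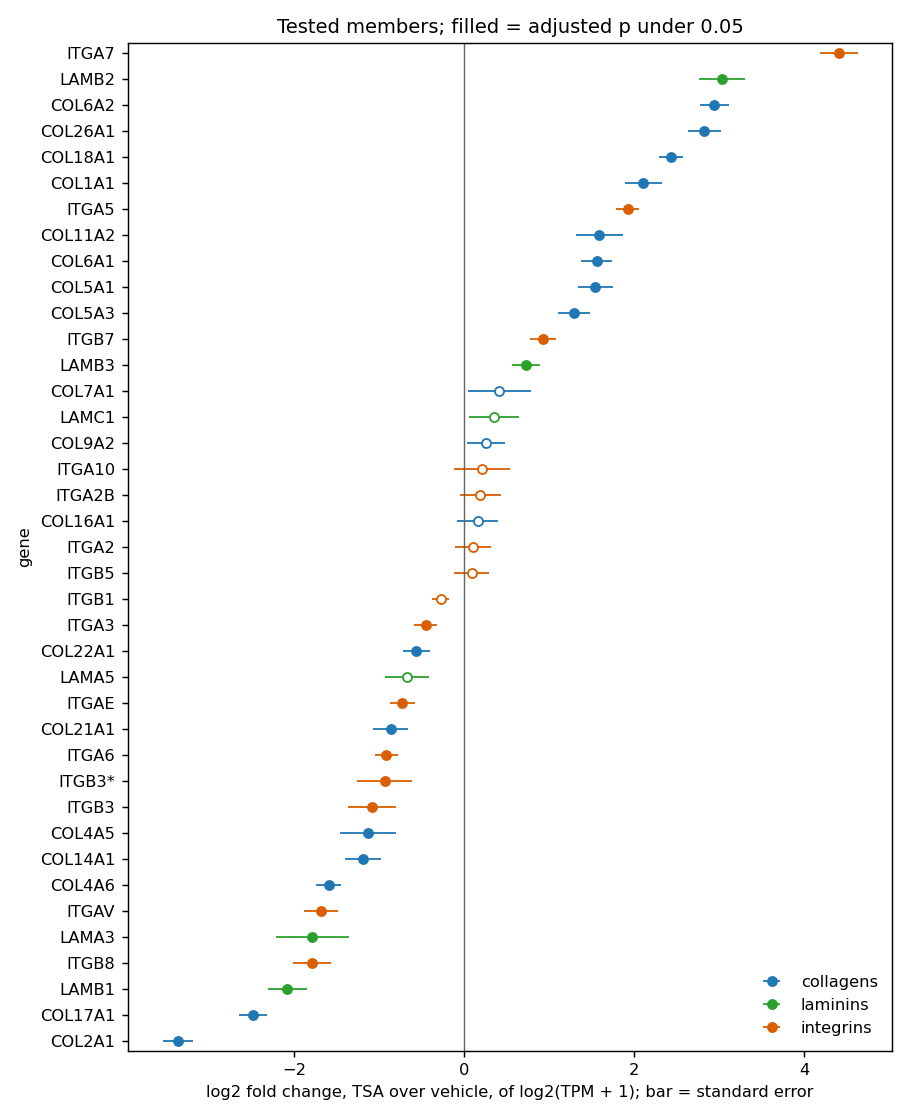
Log2 fold change of log2(TPM + 1), TSA over vehicle, for tested rows. Bars are standard errors from limma, filled points have an adjusted p under 0.05, and colours mark the families. ITGB3* is the row of the identifier ENSG00000259753.1. ITGA7 at 4.41 is the highest row and COL2A1 at −3.37 the lowest.

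Among the fibrillar collagens, 5 of 11 were tested, of which 4 rose and 1 fell, beside 28.0% and 34.2% of all genes tested. COL1A1, COL5A1 and COL5A3 were among the 7 members that entered the test through the TSA libraries. Of all genes that entered in that way 97.9% were called higher, so those calls are no result about the class. COL2A1, the chain of cartilage collagen, was the fibrillar chain with the highest level in vehicle cells. It had 1.75, 1.40 and 1.58 TPM in TSA libraries, against 30.6, 20.6 and 26.9 TPM in vehicle libraries. The groups were far apart, and the 3 TSA libraries were close to each other. The mean level was 16.5-fold lower in TSA, and the log2 fold change was −3.37 (SE 0.18, adjusted p = 1.67e-05). COL1A1, a chain of type I collagen of bone and skin, had 6.42, 4.51 and 5.39 TPM in TSA libraries, against 0.412, 0.211 and 0.906 TPM in vehicle libraries. Its log2 fold change was 2.11 (SE 0.22, adjusted p = 0.000231), and every TSA value lay above every vehicle value. Its partner chain COL1A2 stayed at 0.309, 0.204 and 0.253 TPM in TSA libraries and had no read in any vehicle library. COL1A2 was not tested in the filtered table.

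The other fibrillar chains that rose averaged under 1 TPM in vehicle cells. COL5A1, a chain of the type V collagen found inside type I fibrils, averaged 2.67 ± 0.867 TPM in TSA and 0.237 ± 0.101 TPM in vehicle libraries (SD, n = 3 each), with a log2 fold change of 1.54 (SE 0.20, adjusted p = 0.000654). COL5A3, another type V chain, had 2.04, 1.03 and 1.38 TPM in TSA libraries and 0 in all vehicle libraries. Against a floor of 3 reads over the 3 vehicle libraries it was at least 33.4-fold higher in TSA. The fourth fibrillar gene that rose was COL11A2, a chain of the cartilage collagen type XI, at 4.45 ± 1.59 TPM in TSA and 0.787 ± 0.377 TPM in vehicle libraries (log2 fold change 1.59, SE 0.27, adjusted p = 0.00225). Summed over all 11 fibrillar chains, the level was 16.7 ± 4.38 TPM in TSA and 28.0 ± 5.75 TPM in vehicle libraries (SD, n = 3 each), since COL2A1 made up most of the vehicle sum.

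Type VI collagen, which forms beaded filaments next to basement membranes, is a trimer of COL6A1, COL6A2 and a further chain such as COL6A3. COL6A1 had 17.2, 12.3 and 15.3 TPM in TSA libraries, against 3.78, 4.05 and 5.37 TPM in vehicle libraries. COL6A2, its neighbour on the same strand, had 35.6, 27.7 and 33.4 TPM in TSA libraries, against 4.03, 2.69 and 3.25 TPM in vehicle libraries. Neither gene's groups overlapped, and COL6A2 moved more than COL6A1. The log2 fold change was 1.56 for COL6A1 (SE 0.18, adjusted p = 0.000373) and 2.95 for COL6A2 (SE 0.17, adjusted p = 2.18e-05). COL6A3 was far below both, at 0.351, 0.0752 and 0.173 TPM in TSA and 0.0305, 0.0406 and 0.0648 TPM in vehicle libraries, and was not tested.

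COL18A1, the basement membrane collagen from which endostatin is cleaved, had 40.3, 31.4 and 41.1 TPM in TSA libraries, against 6.78, 5.86 and 5.70 TPM in vehicle libraries. Its mean was 6.15-fold higher in TSA, with a log2 fold change of 2.43 (SE 0.14, adjusted p = 2.5e-05). Of its exon bases, 16.4% overlap SLC19A1 on the opposite strand in GENCODE 29. Whether counting used the strand is not stated in the labels or notes, and without it reads of overlapping partners cannot be told apart. COL26A1, a collagen with an EMI domain, had 4.45, 7.01 and 7.16 TPM in TSA libraries and 0 in all vehicle libraries. These TPM values stood for 102, 165 and 160 recovered reads against none, at least 130.5-fold higher in TSA with a floor of 3 reads over the 3 vehicle libraries. Fitted fold changes of genes at 0 depend on the pseudocount and are no bound.

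COL17A1, a transmembrane collagen of the hemidesmosome, the junction that ties epithelial cells to the basement membrane, had 1.84, 1.88 and 2.04 TPM in TSA libraries, against 17.4, 16.7 and 12.5 TPM in vehicle libraries. It was 8.09-fold lower in TSA, with a log2 fold change of −2.49 (SE 0.17, adjusted p = 3.82e-05) and no overlap. Collagens that decorate the surface of fibrils (the FACIT class) numbered 9, of which 5 were tested, 3 fell and 2 were not called. Of all genes tested, 34.2% fell. COL21A1, the FACIT chain with the highest mean level over all 6 libraries, had 2.33, 1.72 and 2.07 TPM in TSA libraries, against 4.78, 3.33 and 5.76 TPM in vehicle libraries. The groups were apart, with a log2 fold change of −0.87 (SE 0.21, adjusted p = 0.00957). The other 2 that fell were COL14A1 and COL22A1, and the call of COL22A1 was lost when any of 4 libraries was left out (TSA 2 or 3, vehicle 2 or 3; adjusted p 0.0573 to 0.07) and without the filter (0.0536). COL7A1, which builds the anchoring fibrils of skin, had 3.74, 0.921 and 2.58 TPM in TSA and 2.08, 0.777 and 1.52 TPM in vehicle libraries, overlapping groups with an adjusted p of 0.372.

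**Figure D2:**
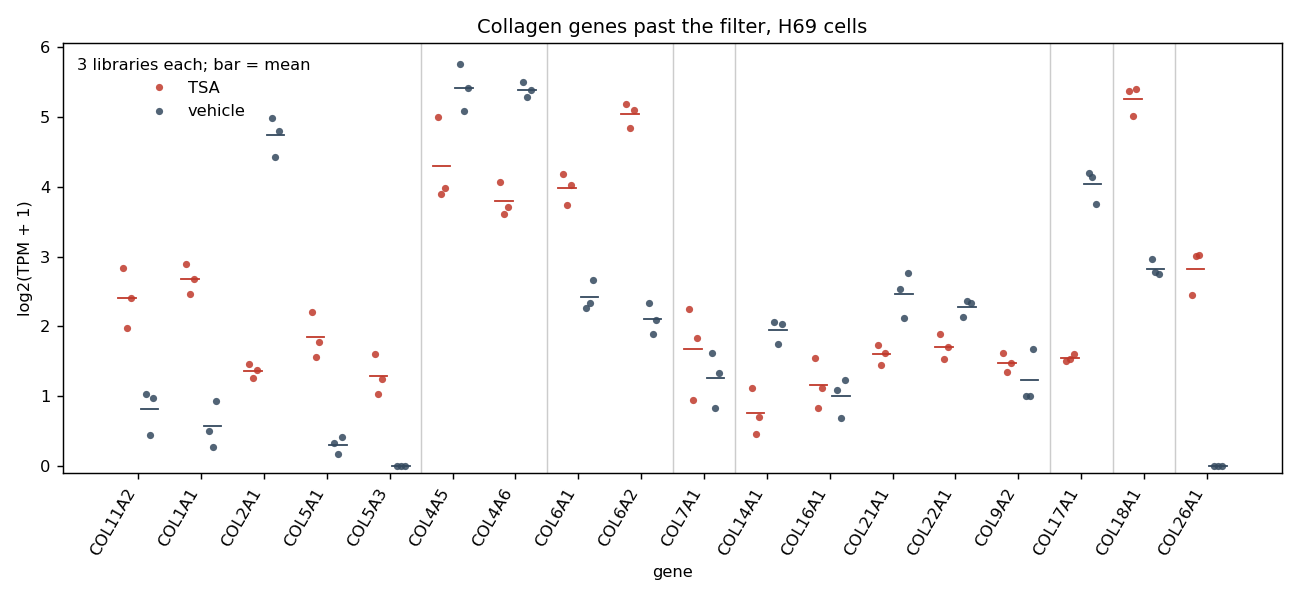
Level of the 18 tested collagens as log2(TPM + 1), 3 TSA libraries left of 3 vehicle libraries for each gene, with points for libraries and bars for means of the log2 values. COL2A1, COL17A1, COL4A5 and COL4A6 were lower in TSA, and COL18A1, COL6A1, COL6A2, COL26A1 and COL1A1 were higher.

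Type IV collagen is the network collagen of basement membranes, and its 6 genes lie as 3 head-to-head pairs. COL4A5 and COL4A6, whose nearest annotated starts are 380 nt apart in RefSeq, held nearly all of the type IV RNA in both groups. Another annotated start of COL4A6 lies 1416 nt from that of COL4A5. COL4A5 had 31.1, 13.8 and 14.8 TPM in TSA libraries, against 53.5, 32.9 and 41.8 TPM in vehicle libraries. COL4A6 had 15.8, 11.2 and 12.1 TPM in TSA libraries, against 44.4, 37.9 and 40.8 TPM in vehicle libraries. Both genes were lower in every TSA library, but the highest TSA value of COL4A5 came close to its lowest vehicle value, while COL4A6 was well separated. The log2 fold change was −1.13 for COL4A5 (SE 0.33, adjusted p = 0.0214) and −1.59 for COL4A6 (SE 0.15, adjusted p = 0.000136). The call of COL4A5 was lost without TSA 2 (adjusted p = 0.067), TSA 3 (0.0738), vehicle 1 (0.069) or vehicle 3 (0.0623).

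The other pairs were low in both groups and were not tested. COL4A4 had 1.82, 0.962 and 0.842 TPM in TSA libraries, against 0.182, 0.113 and 0.143 TPM in vehicle libraries. Its partner COL4A3, whose start is 419 nt away, had 0.0604, 0.0294 and 0.0774 TPM in TSA libraries, against 0.0164, 0 and 0.0619 TPM in vehicle libraries. COL4A4 was thus higher in each TSA library than in any vehicle library, whereas the groups of COL4A3 overlapped. In the authors' deposited table COL4A4 had a log2 fold change of 3.08 (FDR 1.44e-11). COL4A1 and COL4A2, the chains of the most widespread type IV collagen, with starts 127 nt apart, had no read in any vehicle library. They had 0.0699, 0.0170 and 0.0179 TPM (COL4A1) and 0.175, 0.0850 and 0.161 TPM (COL4A2) in TSA libraries. The type IV sum was 34.4 ± 12.7 TPM in TSA and 84.0 ± 13.6 TPM in vehicle libraries (SD, n = 3 each), and the type VI sum was 47.4 ± 6.69 TPM in TSA and 7.77 ± 0.953 TPM in vehicle libraries. Over all 38 collagens the sums were alike, at 157 ± 29.5 TPM in TSA and 158 ± 22.4 TPM in vehicle libraries.

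The leading beta chain of laminin was LAMB2 in TSA cells and LAMB1 in vehicle cells. LAMB2, the beta2 chain of laminins at the neuromuscular junction and in the kidney filter, had 32.4, 16.8 and 19.4 TPM in TSA libraries, against 2.46, 1.62 and 1.44 TPM in vehicle libraries. LAMB1, the beta1 chain of most laminins of early development, had 23.0, 12.7 and 13.0 TPM in TSA libraries, against 76.1, 63.1 and 69.9 TPM in vehicle libraries. Neither gene's groups overlapped, and the first TSA library was the highest of its group for both. LAMB2 was 12.4-fold higher in TSA (log2 fold change 3.03, SE 0.27, adjusted p = 0.000123), and LAMB1 was 4.29-fold lower (log2 fold change −2.08, SE 0.23, adjusted p = 0.000287). LAMB2 made up 55.7%, 53.7% and 56.4% of the TPM of the 4 beta chain genes in TSA libraries, against 3.10%, 2.46% and 1.98% in vehicle libraries. The share, a ratio within a library, varied less between TSA libraries than the levels did. LAMB1 held 39.4% ± 1.48 of it in TSA and 95.9% ± 0.307 in vehicle libraries (SD, n = 3 each).

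LAMB3, the beta chain of the epithelial laminin-332, had 2.64, 1.72 and 1.96 TPM in TSA libraries, against 0.798, 0.815 and 0.964 TPM in vehicle libraries, with a log2 fold change of 0.73 (SE 0.17, adjusted p = 0.00774). LAMB4, a less studied beta chain gene beside LAMB1 on the same strand, had 0.0785, 0.0382 and 0.0403 TPM in TSA and 0.235, 0.295 and 0.342 TPM in vehicle libraries, and was not tested. Its groups did not overlap.

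Of the alpha chains, LAMA3, also part of the epithelial laminin-332, was the highest in both groups. It had 23.7, 8.04 and 8.43 TPM in TSA libraries, against 57.9, 31.7 and 43.9 TPM in vehicle libraries. The groups did not overlap, and the first TSA library stood above the other 2. The log2 fold change was −1.79 (SE 0.43, adjusted p = 0.00957). LAMA5, the alpha chain of many adult basement membranes, had 1.76, 0.793 and 1.11 TPM in TSA and 3.64, 1.67 and 2.42 TPM in vehicle libraries. Its groups overlapped and its log2 fold change of −0.67 missed the threshold (SE 0.26, adjusted p = 0.0622), while the authors' deposited table gave −1.03 (FDR 0.00534). LAMA1, an alpha chain of the embryo, had 2.09, 0.862 and 0.854 TPM in TSA and 0.123, 0.0502 and 0.0979 TPM in vehicle libraries, and was not tested under the filter. The groups of LAMA1 did not overlap, 11.1% of its exon bases overlap genes on the opposite strand, and the authors' deposited table gave it a log2 fold change of 3.82 (FDR 1.49e-15). LAMA2, the alpha chain of muscle, did not exceed 0.0298 TPM in any library.

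Of the gamma chains, LAMC1, the gamma1 chain present in most laminins, had the highest level of all laminin genes in TSA libraries, with 114, 61.3 and 58.1 TPM, against 63.0, 44.1 and 69.5 TPM in vehicle libraries. The groups overlapped, and the high mean of the TSA group rested on its first library. The log2 fold change of LAMC1 was 0.35 (SE 0.29, adjusted p = 0.333), and 0.05 without TSA 1. LAMC3 lay between 0.530 and 0.837 TPM in TSA libraries and between 0.539 and 0.828 TPM in vehicle libraries. The 7 tested laminins thus gave 2 that rose, 2 that fell and 3 not called, beside 28.0% and 34.2% of all genes tested that rose and fell. LAMB3, among the 2 that rose, entered the test through the TSA libraries. Of all genes that entered in that way 97.9% were called higher, so its call is no result about the laminins.

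**Figure D3:**
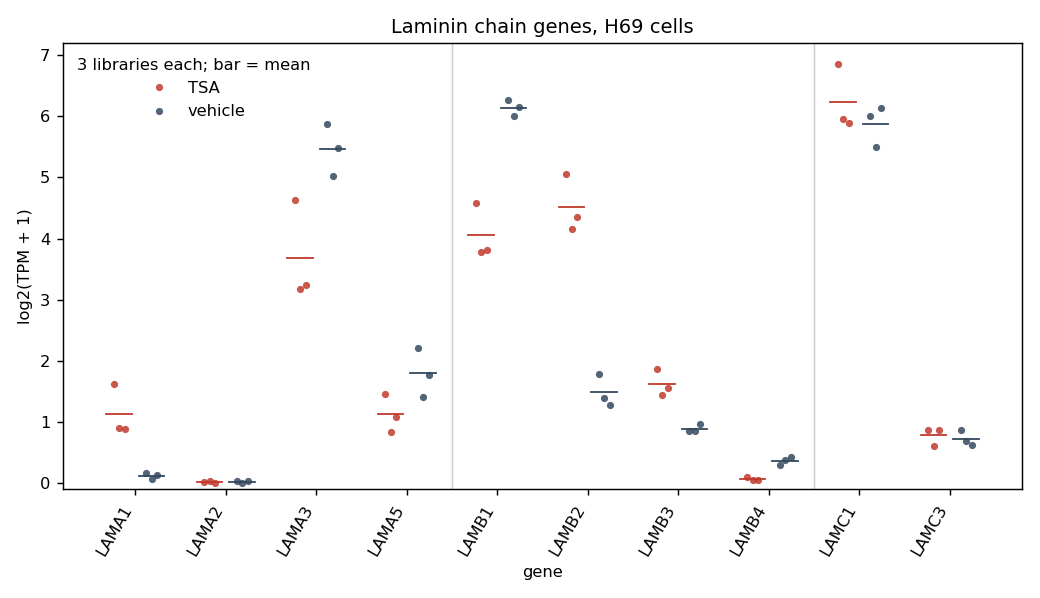
Level of laminin chains as log2(TPM + 1), 3 TSA libraries on the left and 3 vehicle libraries on the right for each gene. Points are libraries and bars are means of the log2 values. LAMB2 was higher and LAMB1 and LAMA3 were lower in TSA, and the groups of LAMC1 overlapped.

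On the log2(TPM + 1) scale, the greatest rise of any tested member was that of an integrin alpha subunit that binds laminin. COL26A1 and ITGA5, at or near 0 in vehicle cells, had greater ratios of means, which that scale understates. ITGA7, the laminin receptor subunit of skeletal muscle, had 60.9, 38.3 and 45.7 TPM in TSA libraries, against 1.50, 0.824 and 1.59 TPM in vehicle libraries. All TSA values were far above all vehicle values. The mean was 36.9-fold higher in TSA, and the log2 fold change was 4.41 (SE 0.22, adjusted p = 1.47e-05). ITGA6, the laminin receptor subunit of many epithelia, had 66.9, 52.0 and 49.8 TPM in TSA libraries, against 115, 95.1 and 109 TPM in vehicle libraries, without overlap (log2 fold change −0.91, SE 0.14, adjusted p = 0.00127). ITGA3, another laminin-binding subunit, averaged 10.6 ± 1.44 TPM in TSA and 14.8 ± 1.18 TPM in vehicle libraries (SD, n = 3 each). Its log2 fold change was −0.45 (SE 0.14, adjusted p = 0.0248), a call lost without TSA 2 (adjusted p = 0.0893), TSA 3 (0.0885), vehicle 1 (0.0846) or vehicle 3 (0.0602), or under quantile scaling (0.0756). Of the summed TPM of these 3 genes, ITGA7 held 41.7% ± 2.89 in TSA and 1.05% ± 0.273 in vehicle libraries, and ITGA6 held 49.0% ± 2.66 in TSA and 86.8% ± 0.313 in vehicle libraries (SD, n = 3 each).

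Subunits that bind the RGD motif of fibronectin, vitronectin and related proteins moved both ways. ITGAV, the alpha subunit of the vitronectin receptors, had 10.6, 7.33 and 6.47 TPM in TSA libraries, against 29.7, 23.5 and 30.6 TPM in vehicle libraries, 3.44-fold lower in TSA without overlap (log2 fold change −1.68, SE 0.20, adjusted p = 0.000385). ITGA5, the alpha subunit of the main fibronectin receptor, had 2.98, 2.94 and 2.63 TPM in TSA libraries, against 0.0395, 0 and 0 TPM in vehicle libraries, where a single library held its 2 reads. Its log2 fold change was 1.92 (SE 0.13, adjusted p = 4.42e-05). ITGAE, which binds E-cadherin on epithelial cells, had 6.93, 9.37 and 8.00 TPM in TSA libraries, against 12.6, 15.4 and 14.1 TPM in vehicle libraries (log2 fold change −0.73, SE 0.15, adjusted p = 0.00506). The groups of ITGAE did not overlap, its call was lost under quantile scaling (adjusted p = 0.0727), and 7.59% of its exon bases overlap another gene on the opposite strand. The other leukocyte alpha subunits, ITGAL, ITGAM, ITGAX and ITGAD, did not exceed 0.510 TPM in any library. ITGA10, the collagen-binding subunit with the highest mean level, had 3.11, 0.743 and 1.30 TPM in TSA and 1.56, 0.957 and 1.12 TPM in vehicle libraries, with a log2 fold change of 0.21 (SE 0.33, adjusted p = 0.60). Its groups overlapped, and its direction turned without TSA 1.

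ITGB1, the beta subunit shared by most matrix receptors, had the highest level of all beta subunits. It had 82.4, 82.8 and 74.1 TPM in TSA libraries, against 94.7, 88.8 and 108 TPM in vehicle libraries. Its groups did not overlap, but the log2 fold change of −0.28 missed the threshold (SE 0.10, adjusted p = 0.0533). ITGB8, which with ITGAV activates latent TGF-beta, had 0.790, 0.495 and 0.373 TPM in TSA libraries, against 4.79, 3.09 and 5.48 TPM in vehicle libraries. It was 8.06-fold lower in TSA, with a log2 fold change of −1.79 (SE 0.22, adjusted p = 0.000476).

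ITGB3, another partner of ITGAV, had 4.18, 1.94 and 2.62 TPM in TSA and 8.69, 4.96 and 8.02 TPM in vehicle libraries for the identifier ENSG00000259207.3 (log2 fold change −1.08, SE 0.28, adjusted p = 0.0139). Of its exon bases 51.6% are shared with AC068234.1 on the same strand in GENCODE 29, so its values are uncertain. The groups did not overlap, and the call was lost without vehicle 3 (adjusted p = 0.0527). The second ITGB3 row, ENSG00000259753.1, shares all of its exon bases with other genes on the same strand and is uncertain too. It had 6.13, 2.41 and 3.45 TPM in TSA and 10.4, 5.83 and 8.77 TPM in vehicle libraries, with overlapping groups and an adjusted p of 0.0394. That call was lost without TSA 2, TSA 3, vehicle 1 or vehicle 3 (adjusted p 0.108 to 0.118) and without the filter (0.0742). ITGB7, the partner of ITGAE, had 1.14, 1.05 and 1.42 TPM in TSA and 0.0668, 0.284 and 0.126 TPM in vehicle libraries (log2 fold change 0.93, SE 0.15, adjusted p = 0.00182), and 42.1% of its exon bases overlap ZNF740 on the opposite strand. ITGB5, also a partner of ITGAV, overlapped, at 1.28, 1.73 and 1.47 TPM in TSA and 1.37, 1.95 and 0.833 TPM in vehicle libraries (adjusted p = 0.742). ITGB4, the partner of ITGA6 in hemidesmosomes, had 1.14, 0.476 and 1.07 TPM in TSA and 0.399, 0.424 and 0.251 TPM in vehicle libraries. The leukocyte subunit ITGB2 had 0.162, 0.178 and 0.125 TPM in TSA and 0.0661, 0.164 and 0.0831 TPM in vehicle libraries, and neither it nor ITGB4 was tested. Among all 15 tested integrin rows, 3 rose, 7 fell and 5 were not called, with a median log2 fold change of −0.28 beside −0.095 for all genes tested, of which 28.0% rose and 34.2% fell. Both ITGB3 rows are among the 7 that fell. Among the 3 that rose, ITGA5 and ITGB7 entered the test through the TSA libraries. Of all genes that entered in that way 97.9% were called higher, so those calls are no result about the integrins.

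**Figure D4:**
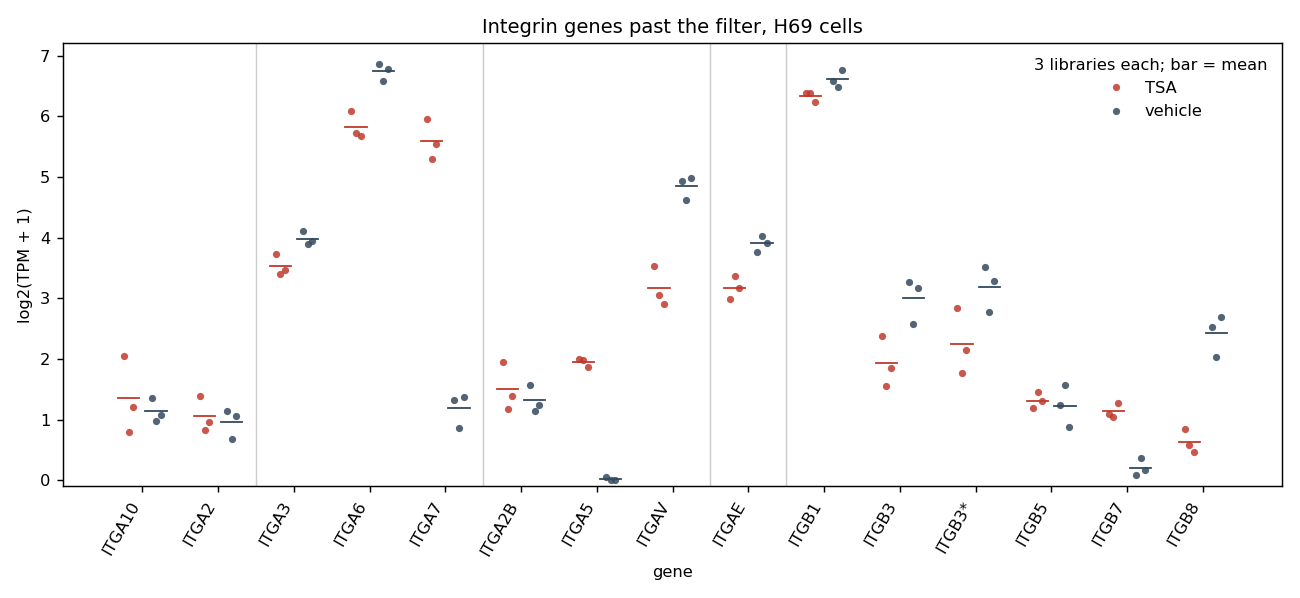
Level of the 15 tested integrin rows as log2(TPM + 1), with TSA libraries left of vehicle libraries for each gene, a point for each library and a bar for the mean of the log2 values. ITGB3* is the row ENSG00000259753.1. ITGA7 and ITGA5 were higher in TSA, ITGA6, ITGAV and ITGB8 were lower, and ITGB1 was not called.

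The 35 members below the filter were low in both groups, with group means up to 1.27 TPM in TSA (LAMA1) and up to 0.715 TPM in vehicle (COL23A1). The TSA mean was the higher one in 31 of them, a count for which no all-gene share was computed. In 20, or 57.1%, every TSA value lay above every vehicle value, against 14.3% of the 14218 genes below the filter. The reverse held for 2, COL28A1 and LAMB4, against 8.81% of those genes. Of the 31814 genes, 27644 were above 0 in at least 2 libraries, and the rest cannot be apart in either way. The members are also long genes, which hold more reads at the same TPM. These shares are thus not matched for detection or length, and the part of either was not tested. Of the 75 members, none was at 0 in the 3 TSA libraries alone, against 7.02% of all genes, and 12 (16.0%) were at 0 in the 3 vehicle libraries alone, against 14.6% of all genes. TSA libraries had more genes above 0 in general, 24792 to 26668 against 22756 to 24345 in vehicle libraries. In a fit without the filter, 11 of the 35 were called higher and 1, LAMB4, lower, so that 24 of the 75 rows rose and 15 fell, against 18.3% and 19.4% of all genes. The authors' deposited table called 31 members higher and 18 lower at an FDR under 0.05, against 21.8% and 19.5% of all genes. The recovered reads, a lower bound of the depth, were 23009041 to 24803310 in TSA libraries and 22533307 to 26148651 in vehicle libraries.

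The members are long genes, with a median longest transcript of 5766 nt, against 2969 nt for all genes tested. The shift of long transcripts in TSA 1 and vehicle 2 is given above. With trends on length and GC content removed within each library, no call was lost and 3 were gained. LAMC1 then had a log2 fold change of 0.62 (adjusted p = 0.0256), ITGA2, a collagen-binding subunit, 0.52 (adjusted p = 0.0241), against 0.10 (adjusted p = 0.702) as deposited, and LAMA5 passed at an adjusted p of 0.0176. The sign of ITGA2 turned without TSA 1 (−0.06) and without vehicle 2 (−0.04). LAMA3 fell by 1.48 on the log2 scale in that fit, against 1.79 without it, and by 2.26 without TSA 1. The part of transcript length in the other results was not tested.

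**Figure D5:**
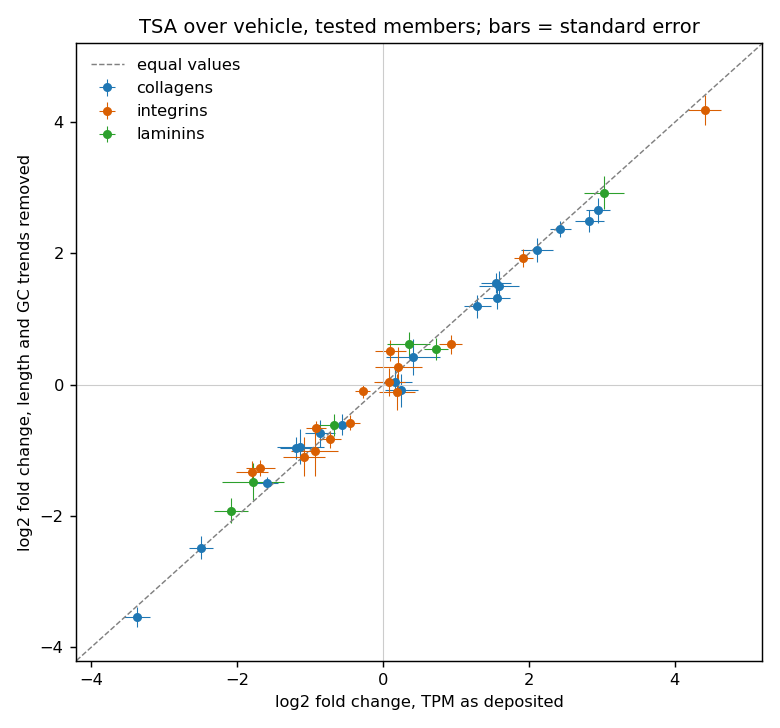
Log2 fold change of tested members, TSA over vehicle, as fitted on the deposited TPM (x axis) and after trends on transcript length and GC content were removed within each library (y axis), with standard errors as bars and equal values on the dashed line. The points lie near that line, and LAMC1, ITGA2 and LAMA5 gained a call.

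Among genes that make, bind, cut or signal from this matrix, taken from lists of 100 genes outside the families, 76 were tested, of which 28 rose (36.8%), 34 fell (44.7%) and 14 were not called, against 28.0% that rose and 34.2% that fell of all genes tested. The same all-gene shares apply to each list named next. Among those that rose, FN1, NID2, SPARC and FERMT2 were under 1 TPM in all vehicle libraries and entered the test through the TSA libraries. Of all genes that entered in that way 97.9% were called higher, so those calls are no result about the lists. Of 28 genes for collagen biosynthesis, 23 were tested, 8 rose (34.8%) and 11 fell (47.8%). LOX, lysyl oxidase, which crosslinks collagen and elastin, averaged 1.77 ± 0.394 TPM in TSA and 23.2 ± 6.58 TPM in vehicle libraries (log2 fold change −3.10). CRTAP, of the prolyl 3-hydroxylation complex, averaged 8.91 ± 0.335 TPM in TSA and 47.6 ± 6.74 TPM in vehicle libraries (−2.28). COLGALT2, a collagen galactosyltransferase, was also lower in TSA (−2.25). P4HA3, an alpha subunit of prolyl 4-hydroxylase, was higher, at 14.7 ± 1.26 TPM in TSA and 1.32 ± 0.111 TPM in vehicle libraries (2.76).

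Of 18 other matrix glycoproteins, 12 were tested, 7 rose (58.3%) and 4 fell (33.3%). FN1, NID2 and SPARC, among the 7, entered the test through the TSA libraries, so their calls are no result about this list. NID1, nidogen-1, which links the laminin and type IV collagen networks, averaged 34.1 ± 3.69 TPM in TSA and 1.69 ± 0.142 TPM in vehicle libraries, and NID2, its relative, 9.18 ± 2.51 TPM in TSA and 0.406 ± 0.205 TPM in vehicle libraries. The log2 fold changes were 3.70 for NID1 and 2.84 for NID2. Agrin (AGRN), a laminin-binding proteoglycan, was higher in TSA (1.78), and tenascin-C (TNC) lower (−1.80). Adaptors that tie integrins to actin and kinases numbered 27, with 22 tested, 9 that rose and 9 that fell (40.9% each). FERMT2, kindlin-2, an integrin activator, averaged 9.48 ± 0.822 TPM in TSA and 0.890 ± 0.0268 TPM in vehicle libraries (2.47). FERMT2 too entered the test through the TSA libraries, so its call is no result about the adaptors. SRC, a kinase of focal adhesions (−2.66), TNS3, a tensin (−2.68), and PARVA, a parvin (−2.29), were lower.

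Of 17 matrix proteases and inhibitors, 12 were tested, 3 rose and 6 fell, against 28.0% and 34.2% of all genes tested. MMP24, a membrane metalloproteinase, averaged 3.89 ± 0.190 TPM in TSA and 51.2 ± 0.454 TPM in vehicle libraries (log2 fold change −3.42). The inhibitor TIMP1 averaged 5.89 ± 1.51 TPM in TSA and 36.9 ± 13.0 TPM in vehicle libraries (−2.43), and MMP16 and TIMP4 were lower too, at −1.80 and −1.65. The 3 that rose were MMP15, MMP17 and the inhibitor TIMP2. TIMP2 averaged 70.5 ± 6.02 TPM in TSA and 36.0 ± 3.63 TPM in vehicle libraries (0.95). Of 10 matrix receptors that are not integrins, 7 were tested, 1 rose (14.3%) and 4 fell (57.1%). These 4 were CD44, the hyaluronan receptor (−2.15), DDR1, a collagen-binding kinase (−1.77), and the syndecans SDC1 (−1.55) and SDC2 (−1.38). SDC2 had the highest level among them, at 61.5 ± 5.92 TPM in TSA and 161 ± 13.4 TPM in vehicle libraries (SD, n = 3 each in all cases). Adjusted p-values of the 20 genes named from these lists by the size of their change were 5.3e-06 to 0.00209.

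RefSeq promoter windows matched 52 of the 74 symbols, with 69 windows. Member windows had a median GC content of 64.0%, against 58.0% for all windows, and the part of this in the counts of the GC box was not tested. The GC box was found in 40 of the 69, or 58.0%, against 42.6% of 35116 windows of all genes. It stood in 13 of 17 windows of 10 genes that rose and in 6 of 15 windows of 10 genes that fell. For 10 genes that were not called it stood in 9 of 13 windows. The median GC content of these windows was 64.8% (rose), 56.8% (fell) and 71.6% (not called). Some genes have several windows, and windows of a gene can overlap. The windows are therefore not independent, and these are shares of windows, not of genes. TATAAA was in 10.1% of member windows against 10.7% of all, and TGANTCA, a sequence that AP-1 binds, in 2.90% against 6.57%. Of the windows printed above, LAMB2 has 1 GC box at position −68 (counted from the annotated start), and LAMB1 has 4, of which 2 overlap. COL6A2 has 4 GC boxes and TATAAA at position −32, and COL17A1 has TATAAA at position −206 and no GC box. Matches were counted at any position of a window. The printed COL4A6 and COL4A5 windows hold none of the 3 motifs, while the window of the other COL4A6 start, not printed, holds 1 GC box. CpG content relative to base composition was 0.564 for LAMB2, 0.924 for LAMB1, 0.711 for COL6A2 and 0.101 for COL17A1, against a median of 0.558 over all windows.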

How the data were processed

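RNA of 6 H69 libraries was sequenced after a stranded messenger RNA preparation, per the labels' protocols. Per the submitters' processing notes the tools were edgeR, featureCounts, Picard 1.127, STAR 2.5.3a and FastQC 0.11.2 and the build hg19, with no roles given. The deposited table gives TPM for 31814 genes, with GENCODE 19 in its name. The authors' deposited table of their comparison gives a log2 fold change, a log2 mean level, a likelihood ratio score and a p-value with FDR, per the file headers; positive meant higher in TSA.

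The test was limma 3.58.1 in R 4.3.3 (eBayes with trend) on log2(TPM + 1). Genes entered it if 3 or more of the 6 libraries reached 1 TPM, with Benjamini-Hochberg adjustment over all 17596 and a threshold of 0.05. Fold changes on that scale understate those of low genes. It was tested on simulated data. Ratios of TPM gave back whole reads for 100% of 27644 genes (relative tolerance 1e-09), the smallest that fit, so that depths are lower bounds: 24803310, 24642000 and 23009041 in TSA and 24400897, 22533307 and 26148651 in vehicle libraries. Floors and reads cover counting error only. Transcript length, GC content, overlaps and gene order came from GENCODE 29, a later annotation than the table's. Figures were drawn with matplotlib 3.10.9.

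The members, lists and rules were chosen with earlier results of these data known. Named were up to 12 members each way with the greatest called change (no overlap, and a group mean that reached 5 TPM), the member of each role class with the highest level, the head-to-head type IV pairs, the laminins (1 gene is not reported here, also in figures) and integrin beta genes, and members that reached 1 TPM in 1 group only. From each list of related genes up to 4 with the greatest change were named. COL1A2, COL6A3, COL11A2, COL14A1, COL22A1, ITGA2 and the genes below the filter named beside their counts were chosen after their values were seen. The same holds for FN1, SPARC, MMP15, MMP17 and TIMP2 of the lists.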

Additional observations from a re-analysis of the deposited data

How the results depend on the processing

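Of 18 alternatives (scaling, pseudocount, filter, a weighted fit, trends removed, replicate numbers, libraries left out), each applied to those of 53 named genes that it could test, 911 of 938 values kept their direction and their side of the threshold, 16 no longer passed, 8 newly passed and 3 turned. Many of the 53 were named for the greatest called changes in these same libraries. The share that held is therefore no measure of how stable calls are in general. The 3 that turned were log2 fold changes of ITGA10 (−0.025 without both replicate 1 libraries, and −0.14 to 0.48 without single libraries) and of ITGB5 (−0.090 to 0.25 without single libraries). The number of members that rose was 24 of 75 with no filter, 5 of 18 with a filter at 5 TPM, and 13 without any single library. Of the 13021 genes that passed the filter at 5 TPM, 3788 rose and 4956 fell. Members that fell numbered 11 to 17 without single libraries, 11 of 18 with the filter at 5 TPM, and 17 with the trends removed. With the trends removed, 6209 of all 17596 genes tested fell. Genes that rose numbered 4289 to 4977 and genes that fell 5157 to 6585 without single libraries. Median-of-ratios scaling moved the median of all genes to 0.01, against −0.095. In all, 6 lower calls were lost in some setting, those of COL4A5, COL22A1, ITGA3, ITGAE and both ITGB3 rows, and no higher call was where the member was still tested. Under quantile scaling 5659 genes rose and 5549 fell, and with voom on recovered reads 5560 and 5385. LAMA5 passed under quantile scaling (0.0124), with voom on recovered reads (0.05 after rounding), without TSA 1 (0.0328) and without vehicle 2 (0.0319), and ITGB1 without vehicle 2 (0.0415). Same-numbered libraries deviated together in pairs 1 and 2 (r = 0.63 and 0.59) but not in pair 3 (−0.07), so the numbers were not taken to pair the libraries. With a replicate block, 13 members rose and 17 fell, LAMA5 with an adjusted p of 0.00948. Over all genes tested, 5637 rose and 6848 fell with the block, against 4929 and 6013 without it. The 3 libraries a group limit the precision, and genes under 1 TPM rest on few reads. The causes of these changes were not tested.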
